A study of Mus musculus with 5 samples.

Results

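The p53 target genes described here were 10 genes that the transcription factor p53 is known to switch on, namely Mdm2, Ccng1, Trp53inp1, Phlda3, Bax, Zmat3, Sesn2, Eda2r, Pmaip1 and Gdf15. They were taken by gene symbol from the 32285 genes counted in every library, and all 10 were found in all 5 single-cell RNA-seq libraries. The cells were a wild-type epiblast stem cell (EpiSC) line of 129 background, a pluripotent line grown from the epiblast of a mouse embryo. All libraries came from cells kept for 3 days in N2B27 medium with 1 µM CHIR99021, a GSK3 inhibitor that activates Wnt signaling, and 8 ng/ml BMP. The libraries differed in FGF2, given at 0, 0.75, 3 or 12 ng/ml, or in the FGF receptor inhibitor AZD4547 (FGFRi) at 30 nM. Whether the FGFRi library also received FGF2 is not given in the sources used here, so its difference from the 0 ng/ml library cannot be assigned to the inhibitor alone. One line was used with 1 library per condition, so no comparison below has a replicate check or a test, and intervals (95%) cover counting error only.

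p53 is held low in unstressed cells because MDM2 marks it for degradation. When that brake is released, p53 activates genes that stop the cell cycle, alter metabolism or promote cell death, and it also activates Mdm2, which closes a feedback loop. The Cdkn2a locus encodes p16Ink4a, an inhibitor of cyclin-dependent kinases, and p19Arf, which restrains MDM2, and counts per gene do not separate these transcripts.

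Promoters of 7 of the 10 members were matched in RefSeq (build GRCm38.p6), each with 250 bases before and 50 bases after the annotated start. They were searched for the p53 half-site, a motif of 10 bases that reads as the same motif on both strands, and for pairs of half-sites up to 13 bases apart. Of all 32851 promoters, 8.36% held a half-site and 0.627% held a pair meeting at least 19 of 20 positions. Among the members, 3 promoters held a half-site, and that of Ccng1 also held such a pair, with no gap between its parts. Of 2 promoters listed for Cdkn1a, the p53 target that encodes the cell cycle inhibitor p21, 1 is shown beside them because it held a pair meeting 20 of 20 positions, as did 0.0731% of all promoters, with a gap of 12 bases, and the other held no half-site. The Ccng1 pair started at -195 and the Cdkn1a pair at -73, counted from the annotated start. The 4 sequences are written on the strand of the gene, from chr11:40755237-40755536 (minus strand) for Ccng1, chr10:117710709-117711008 (minus) for Mdm2, chr7:45466849-45467148 (minus) for Bax and chr17:29090729-29091028 (plus) for Cdkn1a. Capitals mark the half-sites, or in Ccng1 the pair, and a match describes these letters, not binding.
Ccng1: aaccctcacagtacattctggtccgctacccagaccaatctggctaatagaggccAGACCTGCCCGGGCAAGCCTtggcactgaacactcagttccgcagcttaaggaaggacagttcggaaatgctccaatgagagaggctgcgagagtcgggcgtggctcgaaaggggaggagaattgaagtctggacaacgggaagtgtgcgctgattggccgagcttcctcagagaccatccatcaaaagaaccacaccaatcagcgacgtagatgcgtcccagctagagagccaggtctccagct
Mdm2: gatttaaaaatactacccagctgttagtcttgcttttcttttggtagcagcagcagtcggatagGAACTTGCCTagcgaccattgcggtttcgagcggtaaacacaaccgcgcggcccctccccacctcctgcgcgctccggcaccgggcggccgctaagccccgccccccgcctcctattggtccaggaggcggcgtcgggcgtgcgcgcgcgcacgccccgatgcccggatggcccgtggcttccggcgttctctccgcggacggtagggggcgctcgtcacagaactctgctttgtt
Bax: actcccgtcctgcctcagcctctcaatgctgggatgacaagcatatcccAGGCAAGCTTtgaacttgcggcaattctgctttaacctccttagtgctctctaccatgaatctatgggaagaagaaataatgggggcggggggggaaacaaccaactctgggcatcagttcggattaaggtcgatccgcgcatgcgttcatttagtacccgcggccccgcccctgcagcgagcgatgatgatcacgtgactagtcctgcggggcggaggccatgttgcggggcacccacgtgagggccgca
Cdkn1a: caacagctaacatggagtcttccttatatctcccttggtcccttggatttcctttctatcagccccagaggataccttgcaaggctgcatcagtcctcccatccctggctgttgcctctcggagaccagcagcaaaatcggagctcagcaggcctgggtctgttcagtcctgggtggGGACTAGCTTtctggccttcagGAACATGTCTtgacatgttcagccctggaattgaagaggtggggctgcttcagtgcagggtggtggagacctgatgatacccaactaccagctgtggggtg

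Of 15375 barcodes, 10653 with at least 2500 genes and at most 10% mitochondrial UMIs (unique molecular identifiers, each one counted RNA molecule) were kept, between 1696 and 2725 per library. Median UMIs per cell ranged from 24408 in the FGFRi library to 29661.5 at 0 ng/ml, and 7 barcodes were shared over all pairs of libraries. Of the epiblast markers, Pou5f1 ranged in CPM (UMIs scaled by the library total) from 1.74 with the FGFRi to 11.3 under 12 ng/ml and Nanog from 0.46 to 2.03, whereas Sox2 ranged from 15.1 to 34.7 and Dnmt3b from 31.1 to 63.4. Otx2 and Fgf5 of the same list went the other way and were highest with the FGFRi. Otx2 was at 12.0 CPM there and between 1.56 and 2.57 at the FGF2 doses, and Fgf5 at 1.40 and between 0.155 and 0.317. The primitive streak gene T had 0.75 CPM in FGFRi cells, 26.7 without FGF2 and 208 under 12 ng/ml, whereas the contractile gene Acta2 had 1008, 141 and 15.7 CPM. No cell type in these cultures is known to lack the members, so the part of free RNA in the shares of cells was not tested.

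The FGFRi library held 5 of the 8 measured members at a level at least 1.5-fold above that at 0 ng/ml FGF2, and none at a level as far below. The 5 were Trp53inp1, Mdm2, Eda2r, Ccng1 and Zmat3, with ratios between 1.82 and 2.69. Genes counted as measured had at least 5 CPM in 1 or both libraries, which Pmaip1 and Gdf15 did not reach. By the same rule 13.4% of the 10100 genes measured were higher and 10.0% were lower, and the median log2 ratio was 0.93 over the 8 members against 0.00 over all genes. Across the FGF2 doses Mdm2, Eda2r, Ccng1 and Zmat3 ranged over at most 1.25-fold from lowest to highest and Trp53inp1 over 1.69-fold, as the plot of levels by library shows.

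**Figure D1:**
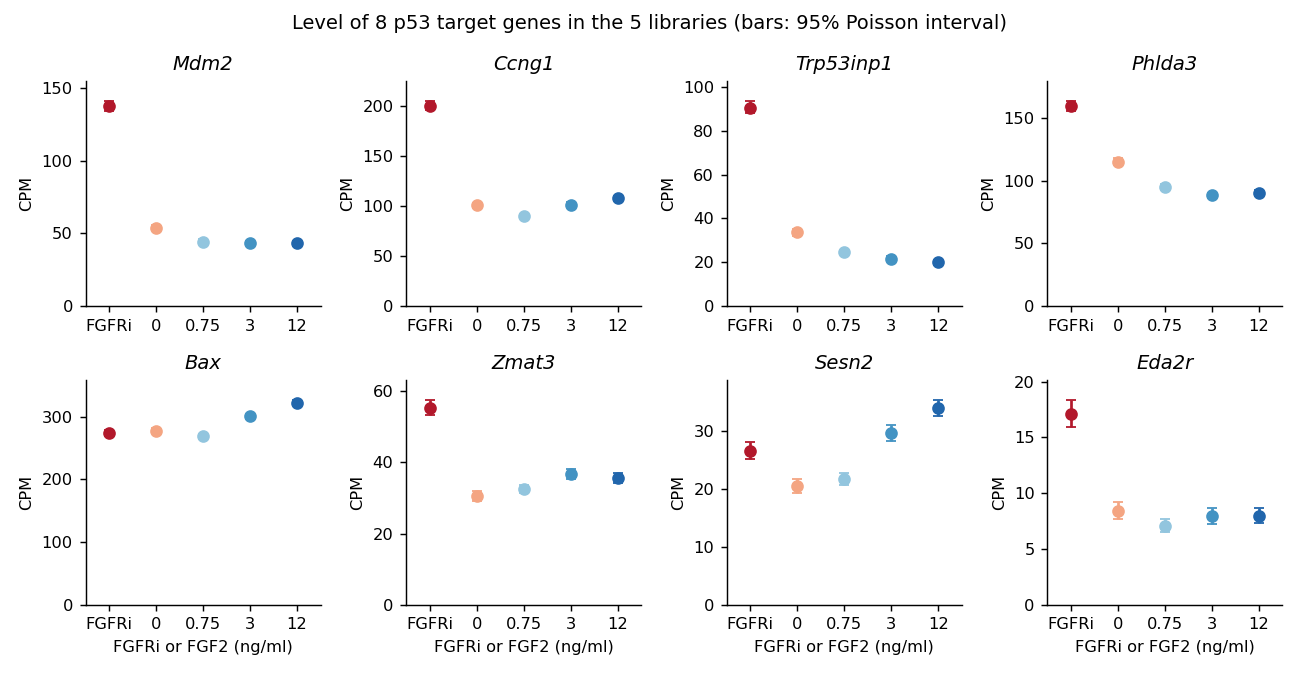
Level of each of the 8 measured members in the 5 libraries, in CPM over all retained cells on an axis from 0 in each panel, with bars for exact 95% Poisson intervals. Mdm2 was at 137 CPM with the FGFRi and between 43.1 and 53.9 CPM at the 4 FGF2 doses, whereas Bax was at 274 CPM with the FGFRi and between 269 and 322 CPM at the FGF2 doses.

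The first members described act on p53 or beside it. Mdm2 (chr10:117688875-117710758, minus strand), whose product marks p53 for degradation, was at 137 CPM with the FGFRi, then 53.9, 44.3, 43.3 and 43.1 CPM at FGF2 doses of 0, 0.75, 3 and 12 ng/ml. The FGFRi library lay 2.55-fold (2.44 to 2.66) above 0 ng/ml, and the doses of 0.75, 3 and 12 ng/ml could not be told apart by their intervals. Ccng1 (chr11:40748552-40755311, minus), which encodes cyclin G1, a partner of the phosphatase PP2A that acts on MDM2, was at 200.1 CPM with the FGFRi, then 100.5, 89.8, 101.4 and 107.6 CPM at the rising FGF2 doses. Its FGFRi level was 1.99 times (1.93 to 2.06) that at 0 ng/ml. The promoter shown above for this gene held 1 half-site, within a pair that met 19 of 20 positions. Trp53inp1 (chr4:11156431-11174379, plus), a stress protein that acts with p53 in cell death and arrest, was at 90.6 CPM with the FGFRi, then 33.7, 24.7, 21.6 and 19.9 CPM at the rising doses. Its level was lower at each higher FGF2 dose, over a range of 1.69-fold, and its ratio of FGFRi to 0 ng/ml was the highest of the 8 at 2.69 (2.55 to 2.84).

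Members tied to growth and death signaling differed among themselves. Phlda3 (chr1:135766119-135769136, plus), whose product restrains AKT signaling, was at 160 CPM with the FGFRi, 115 at 0 ng/ml and between 88.2 and 95.1 CPM at the 3 doses with FGF2. It was highest with the FGFRi, but its ratio of 1.39 (1.34 to 1.43) was under 1.5. Eda2r (chrX:97333840-97377216, minus), the receptor of ectodysplasin A2, was at 17.1 CPM with the FGFRi, then 8.40, 7.08, 7.96 and 8.00 CPM at the rising FGF2 doses. Its ratio was 2.04 (1.82 to 2.29), and its FGF2 doses spanned 1.19-fold from lowest to highest. Bax (chr7:45461697-45466898, minus), the effector that permeabilizes mitochondria in apoptosis, was at 274 CPM with the FGFRi, then 278, 269, 301 and 322 CPM at the rising doses. Its ratio of 0.988 (0.966 to 1.01) held 1 within its interval, and Bax was highest at 12 ng/ml. Bax overlaps the gene Gm45808 on the same strand, so molecules from the shared stretch cannot be told apart.

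Pmaip1 (chr18:66458533-66465565, plus), which encodes the apoptosis activator NOXA, gave 3 UMIs with the FGFRi, then 0, 4, 0 and 1 at the rising FGF2 doses. Its 2 zeros allow levels of up to 0.0528 and 0.0464 CPM. Gdf15 (chr8:70629393-70632456, minus), a secreted stress factor of the TGF-beta family, gave 2, 4, 4, 3 and 5 UMIs in the same order. At this depth no difference was detectable for either gene.

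The remaining members act on RNA and metabolism. Zmat3 (chr3:32334792-32366014, minus), an RNA-binding zinc finger protein, was at 55.3 CPM with the FGFRi, then 30.5, 32.5, 36.7 and 35.6 CPM at the rising FGF2 doses. Its ratio was 1.82 (1.71 to 1.93), and its level at 0 ng/ml was the lowest of the 5. Sesn2 (chr4:132492032-132510501, minus), a leucine-sensing inhibitor of mTORC1, was at 26.6 CPM with the FGFRi, then 20.5, 21.7, 29.7 and 34.0 CPM at the rising doses. It ran with the FGF2 dose and was highest at 12 ng/ml, so that the FGFRi library was 1.30-fold (1.2 to 1.41) above 0 ng/ml yet below 3 and 12 ng/ml. Sesn2 overlaps Gm12981, which is counted as a gene of its own, so molecules from the stretch they share cannot be assigned.

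In all, 6 of the 8 measured members were highest in the FGFRi library with an interval above those of the 4 other libraries, the exceptions being Bax and Sesn2. The share of all genes that meet this criterion was not computed, so it cannot be said whether this count is particular to the members. Between neighbouring FGF2 doses 0 of the 8 were past the 1.5-fold rule, where the share of all measured genes past it was 6.32% for the step from 0 to 0.75 ng/ml, 4.23% for that from 0.75 to 3, and 1.27% for the last. Over the whole dose range, from 0 to 12 ng/ml, 2 members were past it and 14.8% of all measured genes. Trp53inp1 was 1.69-fold (1.58 to 1.81) higher at 0 ng/ml, and Sesn2 was 1.66-fold lower there. Of 26 measured other p53 targets 3 were higher at 0 ng/ml by the rule, Plk2 by 3.52-fold, the desmosome gene Perp by 2.53-fold and the growth arrest gene Gadd45a by 1.79-fold, and 2 were lower. Each comparison with 0 ng/ml shares that library, so these values are not independent of one another.

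**Figure D2:**
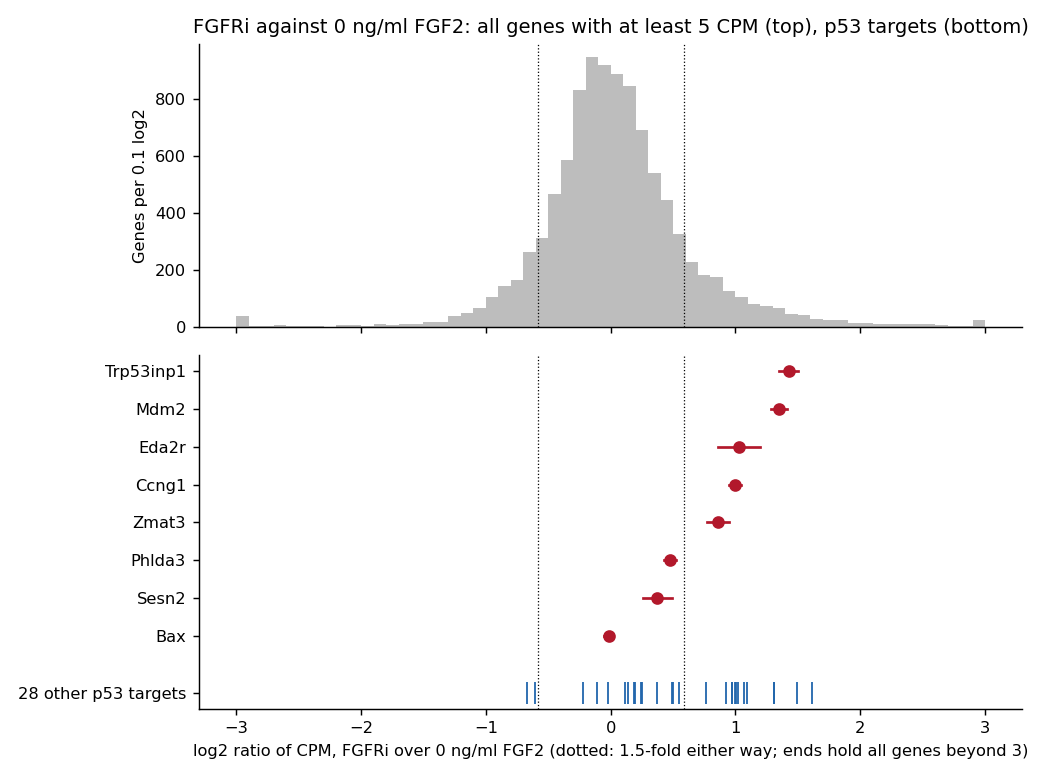
Log2 ratio of CPM in the FGFRi library over 0 ng/ml FGF2, as a histogram of all measured genes (top) and, with exact 95% intervals, for the 8 members, above ticks for 28 other p53 targets (bottom), with dotted lines at 1.5-fold either way. The members have a median of 0.93 on this scale and all genes one of 0.00, with Bax nearest to 0 at -0.02.

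The RNA of p53 itself did not run with its targets. Trp53 (chr11:69580359-69591873, plus) was at 165 CPM with the FGFRi, then 199, 214, 214 and 216 CPM at the rising FGF2 doses, a ratio of FGFRi to 0 ng/ml of 0.830 (0.807 to 0.855). Mdm4, which encodes an MDM2 relative that holds p53 inactive, was at 45.6 CPM with the FGFRi and between 38.6 and 41.6 CPM at the FGF2 doses. Cdkn2a (chr4:89274471-89294653, minus) was at 354 CPM with the FGFRi, then 57.5, 9.11, 7.27 and 9.0 CPM at the rising doses, and thus 6.16-fold (5.94 to 6.40) above 0 ng/ml. Of 16 measured genes of p53 and its regulators, 3 were past the rule upward with the FGFRi, namely Cdkn2a, Trp63 at 1.60-fold and Ppp1r13l at 1.52-fold. A further 4 were past it downward, among them the checkpoint kinase genes Chek1 with a ratio of 0.492, Chek2 at 0.519 and Atm at 0.602.

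Among the 30 other p53 targets compared, 28 were measured, of which 13 were higher and 2 lower by the rule, with a median log2 ratio of 0.52. Cdkn1a (chr17:29090976-29100727, plus) was at 330.4 CPM with the FGFRi, then 117, 112, 119 and 123 CPM at the rising doses. This is the profile of Mdm2 and Ccng1, with 1 high library and 4 close ones, and its ratio was 2.82 (2.74 to 2.90). The death receptor gene Fas had a ratio of 3.06, the adenylate kinase gene Ak1 2.48 and the kinase gene Plk2 2.47. The 2 lower genes were Fdxr, a mitochondrial reductase gene, at 0.627 and Ddb2, a DNA damage sensor gene, at 0.657. In the BCL2 family, the apoptosis regulators to which Bax belongs, 0 of 11 measured genes were higher and 1 was lower, Bcl2 itself at 0.565.

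Other gene groups moved with the members between these libraries, and their part in the result was not tested. Of 16 S phase and G2/M genes 15 were lower with the FGFRi, with a median log2 ratio of -0.89. Of 8 measured mesenchyme markers 6 were higher (median log2 ratio 1.81), 4 of 4 measured fibroblast markers were higher (median 2.50), and all 6 measured streak markers were lower (median -4.01). Of 6 measured genes of cell dissociation and heat shock 3 were higher, Egr1 by 2.46-fold, Jun by 1.93-fold and Fos by 1.82-fold.

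The share of cells with a UMI was compared with every cell thinned to 10000 UMIs, which left out between 9 and 39 shallower cells per library. Mdm2 was found in 55.2% (52.7 to 57.6) of FGFRi cells and in 35.1%, 30.9%, 31.6% and 31.5% of cells at the rising FGF2 doses. The FGFRi library had the highest share and 0 ng/ml the next, as by CPM, and at own depth the Mdm2 shares of these libraries were 76.7% and 67.3%. For Trp53inp1 the shares were 46.0% with the FGFRi and 23.5%, 18.7%, 15.3% and 14.6% at the rising doses. Both members were thus found in more FGFRi cells than in cells of any other library. Ccng1 was found in 68.0% of FGFRi cells and 50.7% of cells without FGF2, Phlda3 in 65.5% and 52.9%, and Zmat3 in 37.1% and 23.1%. Eda2r reached 13.5% of FGFRi cells and between 5.73% and 7.22% elsewhere, and Sesn2 21.0% of FGFRi cells against 16.0% without FGF2 and 25.9% under 12 ng/ml. In 7 of the 8 members the share was higher with the FGFRi than at 0 ng/ml with intervals apart, the exception being Bax with 88.5% and 89.9%. With every cell at 5000 UMIs the intervals overlapped for Sesn2 (10.3 to 13.4% and 8.03 to 10.9%) and Eda2r (5.45 to 7.87% and 3.81 to 5.90%). At own depth those of Sesn2 overlapped, with shares of 40.3% (38.0 to 42.7) and 39.1% (36.8 to 41.5). The share of all genes with intervals apart was not computed. The variance of Mdm2 was 3.06 times its mean between FGFRi cells and 1.29 to 1.89 times in the other libraries, where chance counting alone gives 1. This measure rises with the mean, which was 1.27 UMIs with the FGFRi and between 0.408 and 0.501 in the others. It therefore does not show that Mdm2 was more uneven between FGFRi cells.

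Cells of the FGFRi library held more of the members each. At 10000 UMIs an FGFRi cell held a UMI of 3.95 members on average, against 2.98, 2.88, 3.03 and 3.08 at the rising FGF2 doses. Cells with at least 5 members made up 37.7% of the FGFRi library and between 12.2% and 15.5% of the others. Pairs of members were found together more often than the product of their single shares in 28 of 28 pairs in the FGFRi library and in 26 to 28 of 28 pairs at the FGF2 doses, with medians from 1.12 to 1.17 times the product. The excess over the product was thus small. In the FGFRi library the pairs with Bax were closest to 1, from 1.02 with Mdm2 to 1.08 with Eda2r. The ratio cannot exceed 1 over the larger single share. Bax had a UMI in 88.5% of FGFRi cells, so its pairs could not lie far above 1. Pairs of other genes were not counted in this way, so it cannot be said whether the excess is particular to the members. The largest ratios in the FGFRi library were those of Eda2r, at 1.59 times the product with Zmat3 and 1.53 times with Trp53inp1. Eda2r had a UMI in 13.5% of these cells, Zmat3 in 37.1% and Trp53inp1 in 46.0%, so their ratios had more room to rise. The ratios therefore do not rank the pairs by strength.

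**Figure D3:**
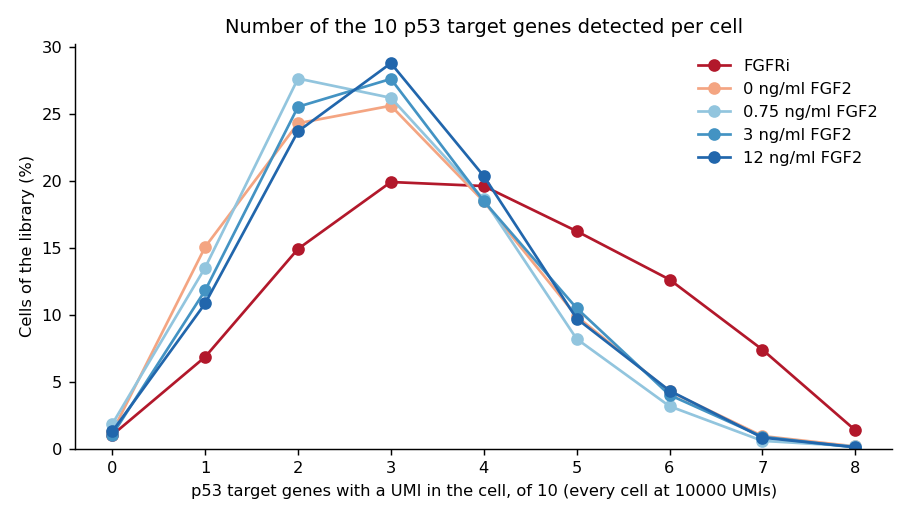
Share of the cells of each library, in percent, by how many of the 10 members had a UMI with every cell at 10000 UMIs, with 1 line per library. The FGFRi line is shifted to higher numbers, with 37.7% of its cells at 5 or more members against 15.3% at 0 ng/ml.

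Within the FGFRi library the members were higher in cells with a Cdkn2a UMI. Such Cdkn2a-positive cells were 1261 of 1701 (74.1%) in the FGFRi library and 30.0%, 9.10%, 4.24% and 6.53% at the rising FGF2 doses. Between Cdkn2a-positive and Cdkn2a-negative FGFRi cells 7 of the 8 measured members were past the 1.5-fold rule upward and none downward, where 11.4% of all measured genes were past it upward and 11.3% downward. The median log2 ratio was 1.55 over the members and -0.05 over all genes. A cell without a Cdkn2a UMI may still hold the RNA, and positive cells were deeper, with a median of 26150 UMIs against 20374.5.

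Mdm2 was at 160 CPM in Cdkn2a-positive and 50.7 CPM in Cdkn2a-negative FGFRi cells, a ratio of 3.16 (2.88 to 3.46). Ccng1 was at 235 and 68.2 CPM (ratio 3.44, 3.18 to 3.73) and Trp53inp1 at 106 and 31.4 CPM (ratio 3.39, 3.02 to 3.81). All 3 members were thus more than 3-fold apart between cells of 1 library. Eda2r had the largest ratio, 5.25 (3.81 to 7.44), with 20.6 against 3.92 CPM. Phlda3 stood at 184 and 67.4 CPM, Zmat3 at 63.5 and 24.0 CPM, and Sesn2 at 29.2 and 16.7 CPM. Phlda3, which was under 1.5-fold between libraries, was thus 2.73-fold apart between these cells. Bax was the exception again, at 292 and 207 CPM with a ratio of 1.41 (1.35 to 1.48). The ratios were smaller among the FGFRi cells with the most S phase and G2/M UMIs (158 positive and 160 negative cells), at 1.57 for Mdm2, 1.94 for Ccng1, 2.61 for Eda2r, 1.69 for Zmat3 and 1.08 for Sesn2. That of Trp53inp1 was 1.85 among the cells with the fewest (802 and 102 cells).

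The RNA of p53 was level across this split, with Trp53 at 165 CPM in positive and 166 CPM in negative cells, a ratio of 0.996 (0.943 to 1.05). Cdkn1a was at 402 and 58.7 CPM, 6.84-fold apart. Of 27 other p53 targets measured, 19 were higher in the positive cells and 1, Ddb2, was lower. Ak1 had a ratio of 6.79, Fas of 4.44 and Gadd45a of 3.36. The split also ran with other groups, and their part in it was not tested, since 15 of 16 S phase and G2/M genes were lower in positive cells (median log2 ratio -1.15) and 6 of 8 measured mesenchyme markers were higher, Runx1 by 10.3-fold and Acta2 by 9.06-fold. The mesenchyme marker Prrx1 was lower in positive cells, short of the rule, with a ratio of 0.668 (0.622 to 0.719). Hand1 was higher in them, also short of the rule. Of 5 measured fibroblast markers 4 were higher in positive cells, Col1a1 by 16.6-fold, and 1, Pdgfra, was lower.

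The level of the members was also graded with the number of Cdkn2a UMIs. FGFRi cells thinned to 10000 UMIs were placed in classes with 0 Cdkn2a UMIs (599 cells), 1 or 2 (361 cells), 3 to 5 (303 cells) and at least 6 (399 cells). Mdm2 was at 58.4, 88.6, 157 and 242 CPM in these classes, and Ccng1 at 77.6, 145, 226 and 338 CPM. Eda2r was at 5.68, 9.14, 22.1 and 36.6 CPM, so that its last class was 6.45-fold above its first. All 8 measured members were higher in each class than in the one before. Bax was at 202, 232, 286 and 361 CPM, 1.79-fold apart from first to last. Not every step was beyond counting error. Sesn2 was at 18.9 CPM (15.5 to 22.7) in the first class and 19.7 (15.4 to 24.8) in the second. The intervals of Eda2r in these classes also overlapped, at 3.93 to 7.93 and 6.29 to 12.8 CPM. The share of all genes that rise in every class was not computed, so the count of 8 has no background. Trp53 was at 160.1, 166, 172 and 150.4 CPM and followed no such order.

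**Figure D4:**
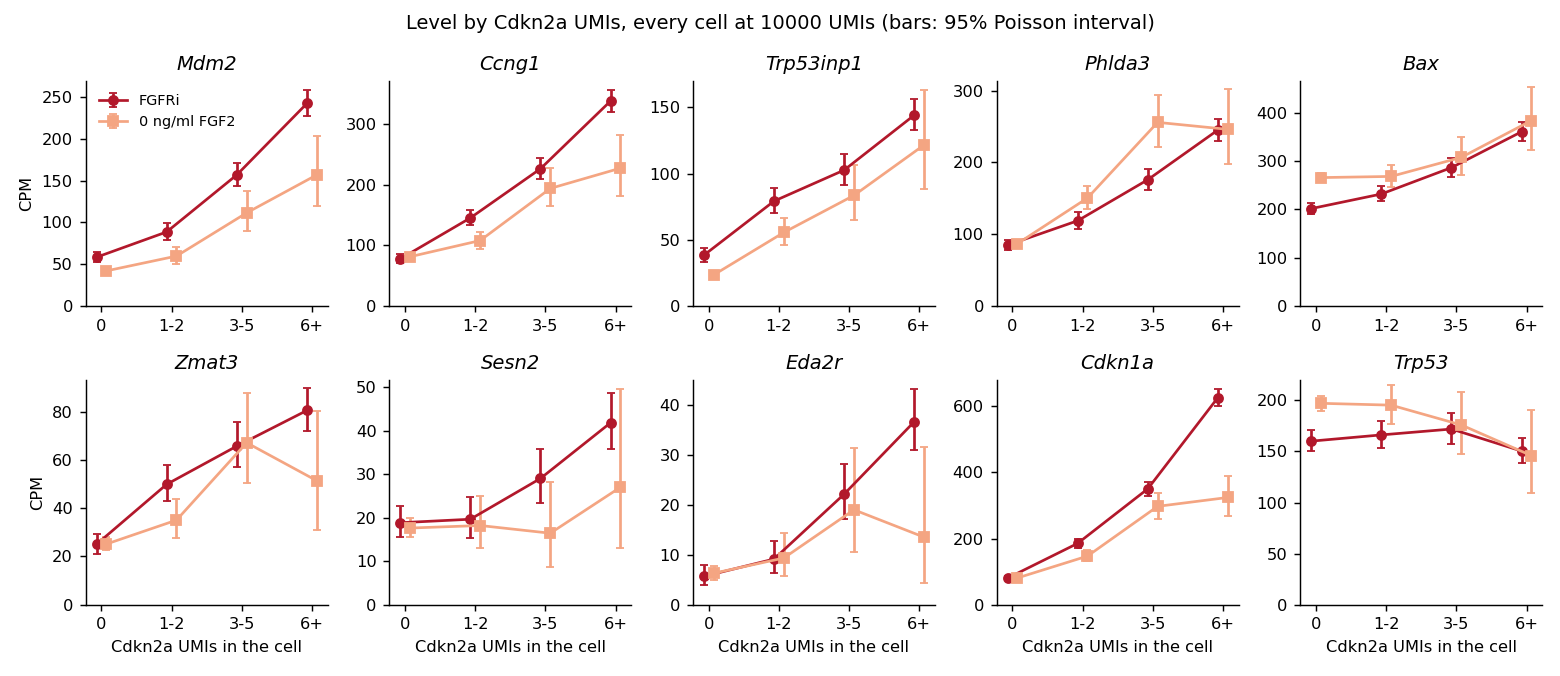
Level in CPM of the 8 measured members, Cdkn1a and Trp53 by the number of Cdkn2a UMIs in the cell, with every cell at 10000 UMIs, for the FGFRi library (circles) and 0 ng/ml FGF2 (squares), with bars for exact 95% Poisson intervals. In the FGFRi library Mdm2 runs from 58.4 to 242 CPM over the 4 classes, whereas Trp53 stays between 150.4 and 172 CPM.

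The same split in the other libraries put Mdm2, Trp53inp1 and Phlda3 past the rule upward each time. Ccng1, Bax and Eda2r also had ratios above 1 in all of them, with Ccng1 at 1.58, 1.23, 1.54 and 1.43 at the rising doses. The Eda2r ratio under 0.75 ng/ml, 1.05 (0.802 to 1.36), held 1 within its interval. The members past the rule upward in Cdkn2a-positive cells were 5 of 8 without FGF2 (12.9% of all genes), 3 under 0.75 ng/ml (11.3%), 4 under 3 ng/ml (13.7%) and 3 under the highest dose (11.7%). Trp53inp1 had ratios of 2.72, 2.03, 2.60 and 2.64 at the rising doses. Mdm2 had ratios of 1.80, 1.62, 2.11 and 1.95, and Phlda3 of 1.91, 1.53, 1.59 and 1.87. These 3 members were past the rule in all 5 libraries, although only 90 cells of the 3 ng/ml library held a Cdkn2a UMI. Zmat3 and Sesn2 were past it in the FGFRi library only, with Zmat3 at 1.43, 0.978, 1.05 and 1.24 at the rising doses and Sesn2 at 1.17, 0.996, 0.925 and 1.04. Whether the split differs between the libraries was not tested. At 0 ng/ml Mdm2 was at 42.1, 59.8, 111 and 157 CPM over the 4 Cdkn2a classes of 1349, 214, 79 and 37 cells. In that library 4 of the 8 members were higher in each class than in the one before, and the share of all genes was not computed.

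The difference between the FGFRi and 0 ng/ml libraries depended on which cells were set side by side, a comparison chosen after the data were seen. Among Cdkn2a-positive cells (1261 with the FGFRi and 509 at 0 ng/ml) 5 members were past the rule upward, where 8.35% of all genes were, with Mdm2 at 2.13-fold, Trp53inp1 at 1.88-fold and Eda2r at 1.82-fold. These positive cells were not alike, with a median of 9 Cdkn2a UMIs with the FGFRi and 3 at 0 ng/ml. In cells with 3 to 5 Cdkn2a UMIs at 10000 UMIs Mdm2 was at 157 CPM (143 to 172) with the FGFRi and 111 CPM (89.3 to 137) without FGF2. Trp53inp1 was at 103 (91.5 to 115) and 83.5 (64.6 to 106) CPM in these cells, and Phlda3 at 176 (161 to 191) and 256 (222 to 293) CPM. In this class the difference was thus smaller for Mdm2 and Trp53inp1 than over all positive cells, and Phlda3 was lower with the FGFRi. With at least 6 Cdkn2a UMIs (399 and 37 cells) Phlda3 was level, at 245 (230 to 261) and 246 (198 to 302) CPM. Mdm2 was at 242 (227 to 258) and 157 (119 to 203) CPM in those cells. Among Cdkn2a-negative cells (440 and 1187 cells) 1 member was past the rule upward (10.5% of all genes) and 1 downward (4.08%). The former was Trp53inp1 at 1.51-fold and the latter Eda2r. Ccng1 had a ratio of 0.821 (0.754 to 0.893) there, Zmat3 of 0.911 (0.788 to 1.05), Eda2r of 0.580 (0.403 to 0.816) and Mdm2 of 1.21 (1.09 to 1.34). Phlda3 had a ratio of 0.778 (0.715 to 0.846) and Sesn2 of 0.863 (0.724 to 1.02) in these cells. With every cell at 10000 UMIs, cells with no Cdkn2a UMI held Ccng1 at 77.6 CPM with the FGFRi and 81.3 without FGF2, Zmat3 at 25.04 and 25.13, and Eda2r at 5.68 and 6.30, with overlapping intervals for all 3. At equal depth no difference in these 3 members was thus detectable in cells with no Cdkn2a UMI. Intervals also overlapped for Phlda3 and Sesn2, but not for Mdm2, Trp53inp1 and Bax. Mdm2 was at 58.4 CPM (52.5 to 64.9) with the FGFRi and 42.1 (38.7 to 45.7) without FGF2 in these cells. Trp53inp1 was at 38.4 (33.6 to 43.7) and 23.6 (21.1 to 26.3) CPM. Bax was lower with the FGFRi, at 202 (190 to 213) and 266 (257 to 275) CPM. Cdkn1a had a ratio of 0.73 in negative and 2.21 in positive cells at own depth. At 10000 UMIs, cells with no Cdkn2a UMI held Cdkn1a at 80.5 CPM (73.4 to 88.0) with the FGFRi and 81.0 (76.3 to 86.0) without FGF2.

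Cells were also divided by their summed UMIs of the 16 S phase and G2/M genes, which had a median of 8 per cell at 10000 UMIs with the FGFRi and between 25 and 29 at the FGF2 doses. In the lowest class, up to 9 such UMIs (904 FGFRi and 236 0 ng/ml cells), 5 members were past the rule upward, where 8.45% of all genes were. Mdm2 was 1.83-fold and Ccng1 1.70-fold higher there. In the middle class (440 and 693 cells) 2 members were past it, Trp53inp1 at 1.66-fold and Mdm2 at 1.51-fold (9.56% of all genes). In the class above 26 such UMIs (318 and 750 cells) 1 member was past it, Trp53inp1 at 1.52-fold (10.1% of all genes), and Eda2r had a ratio of 0.796 (0.578 to 1.08). The ratio of Sesn2 there was 0.821 (0.687 to 0.977) and that of Bax 0.865 (0.824 to 0.907).

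A further division used the epithelial cadherin gene Cdh1 and the mesenchymal cadherin gene Cdh2, and the part of these cell classes in the difference was not tested. Among cells with only a Cdh1 UMI (557 and 672 cells) 5 members were past the rule upward (10.6% of all genes), and among cells with only a Cdh2 UMI (569 and 418 cells) 6 were (20.7%). Cells with both gave 6 (13.5%) and cells with neither gave 5 (15.4%). In cells with only a Cdh2 UMI the ratio was 4.99 for Trp53inp1 and 3.36 for Mdm2, against 1.70 and 1.94 in cells with only a Cdh1 UMI, whereas Sesn2 had its largest ratio, 1.78, in cells with both.

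**Figure D5:**
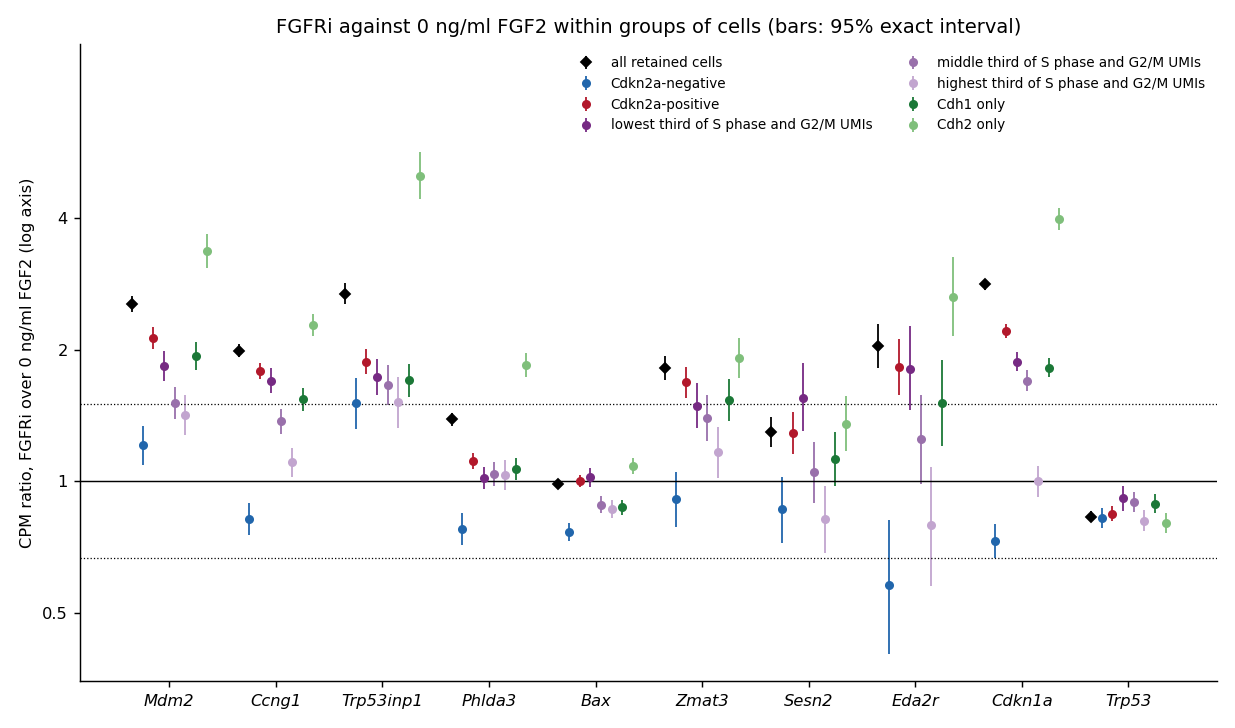
Ratio of CPM in the FGFRi library over 0 ng/ml FGF2, on a log axis, for the 8 measured members, Cdkn1a and Trp53, over all retained cells (black diamonds) and within cells divided by Cdkn2a, by S phase and G2/M UMIs or by Cdh1 and Cdh2 (circles), with exact 95% intervals and dotted lines at 1.5-fold either way. Ccng1 is at 1.99 over all cells and at 0.821 in Cdkn2a-negative cells, whereas Trp53inp1 lies at 1.51 or above in every division drawn.

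Genes whose level went with the members were sought by placing the cells of each library, by their summed member UMIs at 10000 UMIs, into 4 classes of equal size and dividing the level in the highest class by that in the lowest. Of 7066 genes with at least 10 CPM in every library, 21.5% were higher in the highest class in all 5 libraries. Of 19 other p53 targets among them, 16 were higher in all 5, and 15 were at least 1.2-fold higher in all 5, as 3.99% of all genes were. Cdkn1a had the largest least ratio of all, with 10.6 in the FGFRi library and 3.61, 3.53, 3.38 and 3.54 at the rising FGF2 doses. It was followed by the calcium-binding protein gene S100a6 (least ratio 3.29), the actin-binding protein gene Tagln (3.19), the small heat shock protein gene Cryab (2.77) and the neurofilament gene Nefl (2.69). The genes lowest beside high members in every library were Upk1a, Sema3a, Tox3, Smtnl2 and Tfap2c, with ratios of at most 0.286, 0.563, 0.584, 0.620 and 0.634. Trp53 stayed near 1, from 0.927 with the FGFRi to 1.15 at 12 ng/ml. Cdkn2a, which is below 10 CPM in some libraries, had ratios of 6.76, 6.48, 5.72, 10.9 and 13.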

How the data were processed

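Single-cell transcriptomes of differentiated EpiSCs were made with the 10x Genomics 3' kit v3.1, 1 library per condition. The deposited matrices hold UMI counts per gene and barcode that the authors made with Cell Ranger, aligned to mm10, and the matrix headers name version 5.0.1. The counts are whole and not normalized, and no columns belonged to other samples (0). Barcodes with at least 2500 genes and at most 10% mitochondrial UMIs were retained, as in the study. UMIs were summed per library or class of cells and divided by the total to give CPM. Exact Poisson, binomial and conditional ratio intervals (95%) were computed. A count of 0 allows up to 3 counts. Without replicates a rule of size was used, at least 5 CPM in either group and a ratio of at least 1.5, and the share of all measured genes past it is given. Thinning drew 10000 or 5000 UMIs per cell with seed 1. No doublet caller was run, and cells with the most UMIs were left out as an alternative. Gene positions are those of GENCODE vM21 (GRCm38), with promoters from RefSeq. All members, Trp53, Mdm4, Cdkn1a and Cdkn2a were named, of other lists up to 4 genes past the rule in each direction, and of genes going with the members the 5 most extreme in each direction. Members and lists were chosen with earlier results of these data known. The scripts were tested on simulated data. Python 3.11.15, NumPy 2.4.6, SciPy 1.17.1, pandas 2.3.3, Matplotlib 3.10.9, R 4.3.3 and edgeR 4.0.16 (TMM factors only) were used. The alternatives were other cell filters, weights, scalings, thresholds and classes of cells.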

Additional observations from a re-analysis of the deposited data

Results flagged for a closer look

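The barcodes left out by the cell filter held the same direction for most members. They numbered 934 with the FGFRi and 711 without FGF2, with median mitochondrial shares of 50.4% and 48.2%. They were looked at because the comparisons above leave them out. In these barcodes the FGFRi library was above 0 ng/ml FGF2 2.19-fold for Mdm2, 2.25-fold for Ccng1, 2.84-fold for Trp53inp1, 1.55-fold for Zmat3, 2.26-fold for Sesn2 and 2.24-fold for Eda2r. Phlda3 and Bax did not stand apart in this way, with ratios of 1.03 and 0.860. The share of all genes as far apart in these barcodes was not computed, so it cannot be said whether this is particular to the members. Some of these ratios rest on few UMIs. Sesn2 had 87 UMIs with the FGFRi and 26 without FGF2 (interval of the ratio 1.44 to 3.65), and its ratio in retained cells was 1.30. Eda2r had 53 and 16 UMIs (1.26 to 4.19). The removed barcodes had a median of 1676.5 UMIs with the FGFRi and 1411 without FGF2. They come from the same libraries as the retained cells, so they are no independent check. These values have no replicate, and the difference was not tested.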

How the results depend on the processing

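No paired analysis was possible because each condition has 1 library. Of 376 recomputed member ratios 279 stayed within the interval of the ratio as reported and 93 left it. A further 4, counted only among members past the 1.5-fold rule as reported, changed direction. Among the 280 of these 376 ratios from other filters, weights, scalings and thresholds 13 left the interval and 0 changed direction. Members short of the rule could not be counted as changing direction. No member was past the rule between neighbouring FGF2 doses, and only Trp53inp1 and Sesn2 were between 0 and 12 ng/ml. The 0 therefore covers only part of the 280 ratios. The count of 5 members past the rule between the FGFRi and 0 ng/ml libraries was 3 at a ratio of at least 2, where the share of all genes past it went from 23.4% to 9.05%. The alternatives by class of cell were chosen after seeing the data. In them the count in either direction was 2 in Cdkn2a-negative cells, 2 in the middle and 1 in the highest class of S phase and G2/M UMIs. Among members past the rule, the ratio went below 1 in Cdkn2a-negative cells for Ccng1 (0.821), Zmat3 (0.911) and Eda2r (0.580). In the highest S phase and G2/M class that of Eda2r did (0.796). The intervals of Zmat3 (0.788 to 1.05) and of Eda2r in that class (0.578 to 1.08) held 1. With every cell at 10000 UMIs those of Ccng1, Zmat3 and Eda2r overlapped between the libraries in cells with no Cdkn2a UMI. Members short of the rule were also below 1 in Cdkn2a-negative cells, Phlda3 at 0.778 (0.715 to 0.846), Sesn2 at 0.863 (0.724 to 1.02) and Bax at 0.765 (0.729 to 0.803). In the highest S phase and G2/M class Sesn2 was at 0.821 (0.687 to 0.977) and Bax at 0.865 (0.824 to 0.907). At 10000 UMIs the intervals of Phlda3 and Sesn2 also overlapped in cells with no Cdkn2a UMI, and those of Bax did not. With no minimum level the counts for the 3 steps of neighbouring FGF2 doses were 1, 1 and 2 in rising order, all from Pmaip1 and Gdf15 at 5 UMIs or fewer. Between 0 and 12 ng/ml it was 0 at a ratio of at least 2. The shares of all genes beside the counts for FGF2 doses at these settings are not given here. The count of 7 in the Cdkn2a split (22.7% of all genes in either direction) was 6 at a ratio of at least 2 (9.46%), in the highest S phase and G2/M class (12.8%) and in cells with only a Cdh1 UMI (18%), 8 in cells with only a Cdh2 UMI (36.8%) and 9, with Pmaip1 and Gdf15 added, with no minimum level (46.9%).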

Other observations

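Sesn2 is also known as a target of ATF4, the transcription factor of the amino acid response. Between 0 and 12 ng/ml, of 14 measured genes of the ATF4 and stress response list 6 were lower at 0 ng/ml by the 1.5-fold rule and 1 was higher, and 14.8% of all measured genes were past the rule. The ratio of 0 to 12 ng/ml was 0.271 for the glutathione-degrading enzyme gene Chac1, 0.495 for the serine synthesis gene Psat1, 0.506 for the folate enzyme gene Mthfd2 and 0.516 for the pseudokinase gene Trib3. Sesn2 had 0.604 in the same comparison. The transcription factor gene Atf3 went the other way, at 2.71. Relative to cells without FGF2, FGFRi cells held Sesn2 1.30-fold higher, whereas this list had a median log2 ratio of -0.29. By the rule 4 of its 13 measured genes were lower with the FGFRi and 1 was higher. In the Cdkn2a split of FGFRi cells Sesn2 was 1.75-fold higher in positive cells. Of 12 measured list genes 3 were lower there and 2 were higher. Any part of ATF4 in the level of Sesn2 was not tested.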
